A study of Mus musculus with 16 samples.

Results

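Kidneys of mice that went through calorie restriction before cisplatin were compared with kidneys of mice that received cisplatin without it. The comparison takes 8 of the 16 libraries of the series, chosen by their labels for preconditioning and injection: 4 of calorie restriction with cisplatin (CR_cisplatin) and 4 of no preconditioning with cisplatin (BL_cisplatin). All mice were C57BL/6 animals of 20 weeks, and their kidneys were perfused, taken 72 h after an intraperitoneal injection, and sequenced as total RNA depleted of ribosomal RNA. CR_cisplatin mice had 4 weeks of calorie restriction before the injection, and BL_cisplatin mice had no preconditioning. The 4 BL_vehicle libraries, from mice without preconditioning that received 0.9% sodium chloride, are given beside them as the background level. The remaining group, HP_cisplatin, was exposed to hypoxia for 2, 4 and 8 h on 3 days before cisplatin, and enters here through the filter on low values and the shared estimate of the spread. No library combines calorie restriction with vehicle, so an effect of the diet alone cannot be told apart from its effect on the response to cisplatin. Calorie restriction here means the 4 weeks named by the labels, which do not give its degree, the cisplatin dose, the sex of the mice or the hour of harvest. The labels also do not say whether each library is a separate mouse, so p-values measure the spread between these samples, which may be technical.

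Cisplatin is a platinum drug against tumours that enters the proximal tubule, the stretch of the nephron that reclaims most of the filtered solutes, through organic cation and copper transporters. There its DNA adducts activate p53, tubule cells lose transporters and mitochondrial enzymes, and surviving cells take on an injured state marked by KIM-1 (the product of Havcr1), NGAL (the product of Lcn2) and keratins. Calorie restriction lowers glucose and insulin, raises fat and ketone use in many tissues, shifts feeding time and with it the phase of peripheral clocks, and has been studied in rodents as a preconditioning against acute kidney injury.

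Levels are in TPM, a unit in which read counts are divided by exon length and each library then adds up to 1000000, which allows levels to be compared between genes. A log2 fold change is the mean log2(TPM + 1) of CR_cisplatin minus that of BL_cisplatin, which understates the change of genes near or under 1 TPM. A gene was tested where it reached 1 TPM in at least 4 of the 16 libraries (15014 of 46078 genes listed), and was called higher or lower at an adjusted p under 0.05 (limma with Benjamini-Hochberg adjustment over all genes tested). SE is the standard error of the log2 fold change from that fit. Gene positions are those of GENCODE M21 on GRCm38. No list was tested as a whole: its count and median can be read against 29.8% of all genes tested called higher, 37.4% called lower, and a median log2 fold change of -0.08. The filter bears on such counts, since a gene that reached 1 TPM only in the groups where it is high had to differ. The tested members below 1 TPM in all but at most 3 of the 8 CR_cisplatin and BL_vehicle libraries are therefore given where they are many.

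Markers of kidney tubule and glomerulus (Umod, Lrp2, Aqp2 and Nphs1) were detected in all 8 libraries. Some libraries stood apart, and some of the results that rest on them are also given without them. Read counts recovered from the TPM came to between 49180903 and 60668875 in the 8 libraries. CR_cisplatin 4 and HP_cisplatin 4, which carry different preconditioning labels, were closer to each other than any other pair: the variance between their read counts was 1.65 times that of counting alone over 16762 genes, against at least 3.48 times for the other 119 pairs. By the same ratio CR_cisplatin 4 stood at 4.38 to 4.96 from CR_cisplatin 1 to 3. HP_cisplatin 4 stood at 3.98 to 5.26 from CR_cisplatin 1 to 3 and at 5.39 to 8.44 from BL_vehicle. From its own group, HP_cisplatin 1 to 3, it stood at 19.55 to 62.37. A wrong label and shared material cannot be told apart here, so the labels of both libraries are in doubt. HP_cisplatin 4 also enters the shared estimate of the spread. Within CR_cisplatin the ratio ran from 3.57 to 4.96, and within BL_cisplatin from 3.48 to 12.43. Adipose transcripts were present in BL_cisplatin 4 and CR_cisplatin 4, where Ucp1, the uncoupling protein of brown fat, measured 106.9 and 37.4 TPM against at most 0.146 in the other 6 libraries. They were present at a lower level in BL_vehicle 3 (3.53 TPM of Ucp1) and also in HP_cisplatin 2 and 4 (23.8 and 35.7 TPM). Red blood cell transcripts differed between the groups: the summed TPM of 9 red blood cell genes was 6.86 to 9.67 in BL_cisplatin, 17.3 to 67.6 in CR_cisplatin and 34.6 to 45.1 in BL_vehicle. CR_cisplatin 3 held less haemoglobin RNA than the rest of its group (Hbb-bs 13.6, 16.9, 0.369 and 14.3 TPM in CR_cisplatin 1 to 4). Library titles carry 1 of 2 prefixes, whose meaning the labels do not give: BL_cisplatin 1 to 4 and CR_cisplatin 1 share the first, and all others the second. Of 9447 genes called without CR_cisplatin 1, that library lay outside the range of BL_cisplatin, which shares its prefix, in the called direction in 9151 (96.9%), though these calls use the same BL_cisplatin libraries. With the prefix as a term the difference becomes that of CR_cisplatin 1 from the mean of BL_cisplatin. That fit therefore rests on 1 library of calorie restriction and cannot tell an effect of the prefix from a loss of replicates. Named genes that lost their call in it were Anxa7, Arntl, B2m, Bst1, Ccnd1, Cd3eap, Ciita, Cry1, Cs, Cyp4a10, Decr2, Egr1, Fxyd4, H2-DMa, Mdh2, Mertk, Mki67, Nqo1, Prom1, Rab43, S100a8, S100a9, Snhg11 and Tsc22d3. The median SD of log2(TPM + 1) between libraries was 0.128 in BL_cisplatin, 0.0889 in CR_cisplatin, 0.0963 in BL_vehicle and 0.236 in HP_cisplatin.

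After cisplatin, kidneys with calorie restriction held high levels of transporter, peptidase and mitochondrial transcripts of the tubule, and low levels of injury, p53 target, immediate early and chemokine transcripts, compared with kidneys without it. Of 15014 genes, 10100 were called (67.3%), with 4480 higher (29.8%) and 5620 lower (37.4%) under calorie restriction. More than 2-fold differences were called for 1248 higher (8.31%) and 1327 lower (8.84%) genes, and more than 4-fold differences for 339 (2.26%) and 323 (2.15%), while 4894 of the calls (48.5%) were under 1.5-fold. Without CR_cisplatin 4, 9475 genes were called and 9368 of them were among the 10100. In 4130 genes (27.5%) every CR_cisplatin library lay above every BL_cisplatin library, and in 5593 (37.3%) below. Since so many genes were called, a list is described here mainly by how large and how uniform its differences were. Genes called higher held 31.7 to 35.2% of the TPM of BL_cisplatin libraries, 51.8 to 54.2% in CR_cisplatin and 52.5 to 55.5% in BL_vehicle. They were chosen by the same CR_cisplatin and BL_cisplatin libraries, so the order of the cisplatin groups follows from that choice.

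In TPM a rise of abundant genes lowers the share left for others, and the split between higher and lower calls moved with the scaling. The median log2 fold change of all genes tested was -0.08. After leaving out mitochondrial and red blood cell genes and the 10 of highest level it was -0.24, and higher genes made up 33.4% of calls in place of 44.4%. Voom on recovered counts gave a median of -0.22 and 35.8% higher, and quantile normalization a median of -0.01 and 50% higher. Small differences, of the size of these medians, therefore depend on the scaling. A lower level in whole kidney RNA may come from fewer cells of a type or from less RNA per cell, and these cannot be told apart here.

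**Figure D1:**
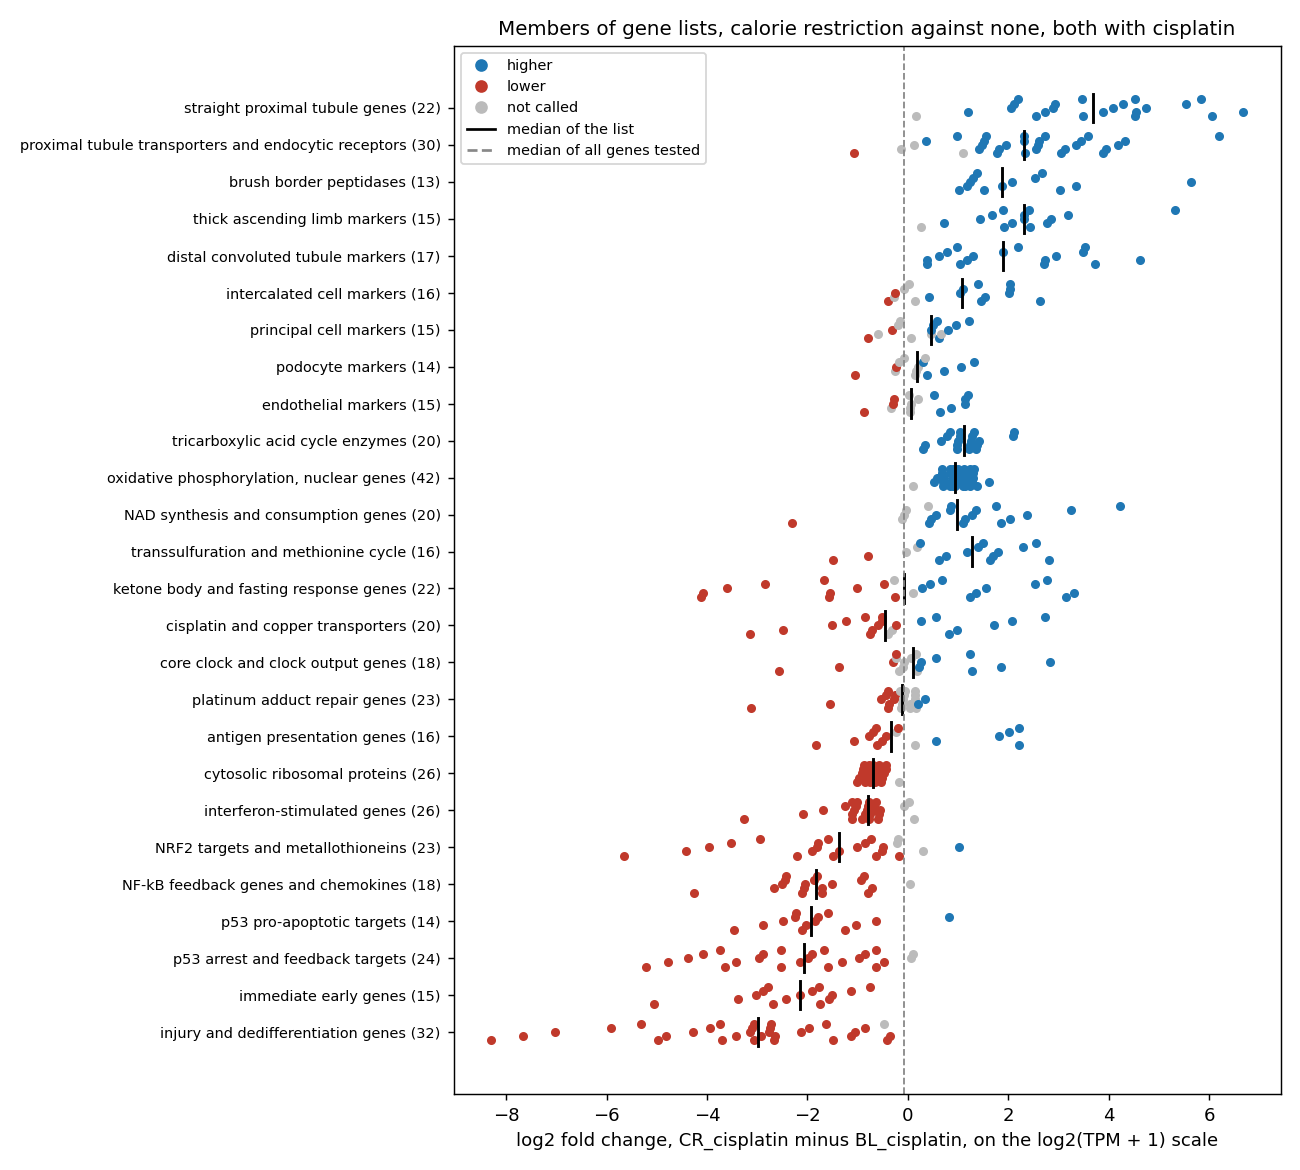
Each point is a tested member of a gene list, placed at its log2 fold change of CR_cisplatin minus BL_cisplatin on the log2(TPM + 1) scale (n = 4 libraries per group), with the number of members in brackets, black bars for list medians and a dashed line for the median of all genes (-0.08). Tubule and mitochondrial lists lie to the right, with medians up to 3.69 in straight proximal tubule genes, and injury, p53 and immediate early lists to the left, with a median of -2.99 in injury genes.

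Most transporters of the proximal tubule were far higher with calorie restriction. Of 30 transporters and endocytic receptors, 26 rose and 1 fell, with a median log2 fold change of 2.33 against -0.08 over all genes. Slc34a1, the apical sodium-phosphate cotransporter NaPi-IIa (chromosome 13, 55398187 to 55415592, plus strand), measured 18.2, 18.2, 22.5 and 30.2 TPM in BL_cisplatin 1 to 4 and 1406, 1915, 1848 and 1567 TPM in CR_cisplatin 1 to 4. Every CR_cisplatin library was far above every BL_cisplatin library, and CR_cisplatin 2 and 3 lay within the BL_vehicle range of 1580.1 to 2173 TPM (log2 fold change 6.20, SE 0.87, limma adjusted p = 6.92e-05). Slc22a6, the basolateral organic anion transporter OAT1, measured 29.4, 22.3, 19.5 and 22.3 TPM without and 248, 259, 260.2 and 288 TPM with calorie restriction. Again the groups did not overlap (log2 fold change 3.45, SE 0.37). Against BL_vehicle, the median log2 difference of the 30 transporters was -2.35 in BL_cisplatin and 0.01 in CR_cisplatin. These comparisons share libraries with each other and with the one above.

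Carriers of sugars, phosphate, lactate and amino acids were among those that rose. The glucose carriers differed in size: Slc5a2 (SGLT2) measured 6.07 to 23.3 TPM in BL_cisplatin and 167 to 219 in CR_cisplatin (log2 fold change 3.89), and the basolateral Slc2a2 (GLUT2) 7.26 to 12.2 and 26.8 to 31.3 (1.56). Slc5a2 shares 20.6% of its exon bases with a gene on the other strand, and the strandedness of the counting is not given in the sources used here. The sodium-lactate carrier Slc5a12 stood at 2.64 to 9.34 against 75.3 to 147 TPM (4.19). Slc34a3, a phosphate carrier of the same family as Slc34a1, stood at 0.125 to 0.563 against 17.0 to 22.0 TPM (3.95). Among basolateral carriers, Slc7a7, which exports cationic amino acids, had 3.04 and the organic anion carrier Slc22a8 (OAT3) 4.33. The endocytic receptors megalin and cubilin rose too: Lrp2 measured 53.6, 41.6, 42.1 and 67.9 TPM without and 514, 533, 532 and 513 TPM with calorie restriction. The CR_cisplatin libraries of Lrp2 lay close together and above all BL_cisplatin libraries (log2 fold change 3.35, SE 0.39, limma adjusted p = 5.83e-05). Cubn had a log2 fold change of 2.31, and the water channel Aqp1 of 2.60. Slc20a2, a phosphate carrier of the other family (PiT-2), was the member that fell, with 26.0 to 27.8 TPM in BL_cisplatin and 11.5 to 13.2 TPM in CR_cisplatin (-1.07). Slc13a1, the sulfate carrier, was not called: it measured 20.9, 7.97, 8.95 and 52.3 TPM in BL_cisplatin and 44.6, 28.6, 39.2 and 39.3 TPM in CR_cisplatin, and BL_cisplatin 4 alone lay above CR_cisplatin. Without BL_cisplatin 4 its log2 fold change was 1.62 (limma adjusted p = 0.00329).

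Genes of the straight part of the proximal tubule, the segment where platinum injury is most often described, had the largest median of the tubule lists. Of 22 members 21 rose, with a median of 3.69. Slc7a13, the AGT1 amino acid transporter, measured 2.63, 2.31, 2.21 and 2.78 TPM in BL_cisplatin and 364, 369, 349 and 334 TPM in CR_cisplatin. Its CR_cisplatin libraries lay above all BL_cisplatin libraries and also above the BL_vehicle libraries (277 to 321 TPM), and its log2 fold change of 6.68 (SE 0.93, limma adjusted p = 6.78e-05) was the largest rise named by the rule for genes with libraries that do not overlap. Acy3, an aminoacylase that deacetylates mercapturic acids, and Gatm, the enzyme of guanidinoacetate synthesis that starts creatine production, were likewise above both other groups: Acy3 at 1123 to 1178 TPM against 69.0 to 91.6 in BL_cisplatin and 929.5 to 1070.5 in BL_vehicle, Gatm at 201 to 237 against 7.13 to 9.85 and 159 to 184 TPM. Kap, an androgen-regulated protein and the most abundant transcript of the list, measured 1839.5 to 2086 TPM in BL_cisplatin and 19900.0 to 22593 TPM in CR_cisplatin. The organic anion carriers Slc22a28 (5.84) and Slc22a30 (5.54) and the steroid dehydrogenase Akr1c21 (6.06) had large log2 fold changes, but belong to families of similar genes whose reads the counting could split, so their levels are uncertain. Slc5a10, a mannose and fructose carrier, was not called and measured 77.3 to 95.7 TPM in BL_cisplatin and 86.1 to 105 TPM in CR_cisplatin. Among the other large rises were Inmt, an indole methyltransferase (5.77), Miox, which opens the ring of inositol (5.51), Ttc36 (5.50) and Ugt2b38, a glucuronosyltransferase of a multigene family (5.35).

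All 13 tested brush border peptidases rose, with a median of 1.87. Mep1b, the beta subunit of meprin, measured 0.784, 0.713, 0.869 and 2.12 TPM in BL_cisplatin and 110.3, 114, 99.5 and 85.2 TPM in CR_cisplatin. The groups did not overlap, with a log2 fold change of 5.64 (SE 0.73), while its partner subunit Mep1a rose less (2.54). Ggt1, which breaks down extracellular glutathione, had 3.36, and Dpep1, a dipeptidase, 2.68. Some peptidases that act on angiotensins lay outside the BL_vehicle range too: Enpep (aminopeptidase A) measured 39.6 to 44.9 TPM in CR_cisplatin, 12 to 18.9 in BL_cisplatin and 28.8 to 32.6 in BL_vehicle. Anpep (aminopeptidase N) stood at 47.3 to 54.9, 16.3 to 25.7 and 34.3 to 39.9 TPM in that order. For both genes the CR_cisplatin libraries were the highest of the 12. Ace did not follow, with 42.3 to 50.1 TPM in CR_cisplatin, 9.05 to 13.3 in BL_cisplatin and 51.8 to 62.4 in BL_vehicle.

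Transcription factors of the proximal tubule differed less than its transporters. Of 19 tested, 8 rose and 4 fell, with a median of 0.17. Hnf4a, the nuclear receptor that directs proximal tubule genes, measured 52.0, 36.8, 46.9 and 49.5 TPM in BL_cisplatin and 159, 182, 178 and 171 TPM in CR_cisplatin. The libraries did not overlap (log2 fold change 1.89, SE 0.23, limma adjusted p = 5.83e-05). Maf (1.85), the mitochondrial coactivator Ppargc1a (1.23) and its partner Esrra (1.01) also rose. Pax8, a factor of kidney development, fell (-0.74), with 38.5 to 42.5 TPM without and 20.5 to 25.4 TPM with calorie restriction, as did the xenobiotic receptor Nr1i2 (-0.77).

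**Figure D2:**
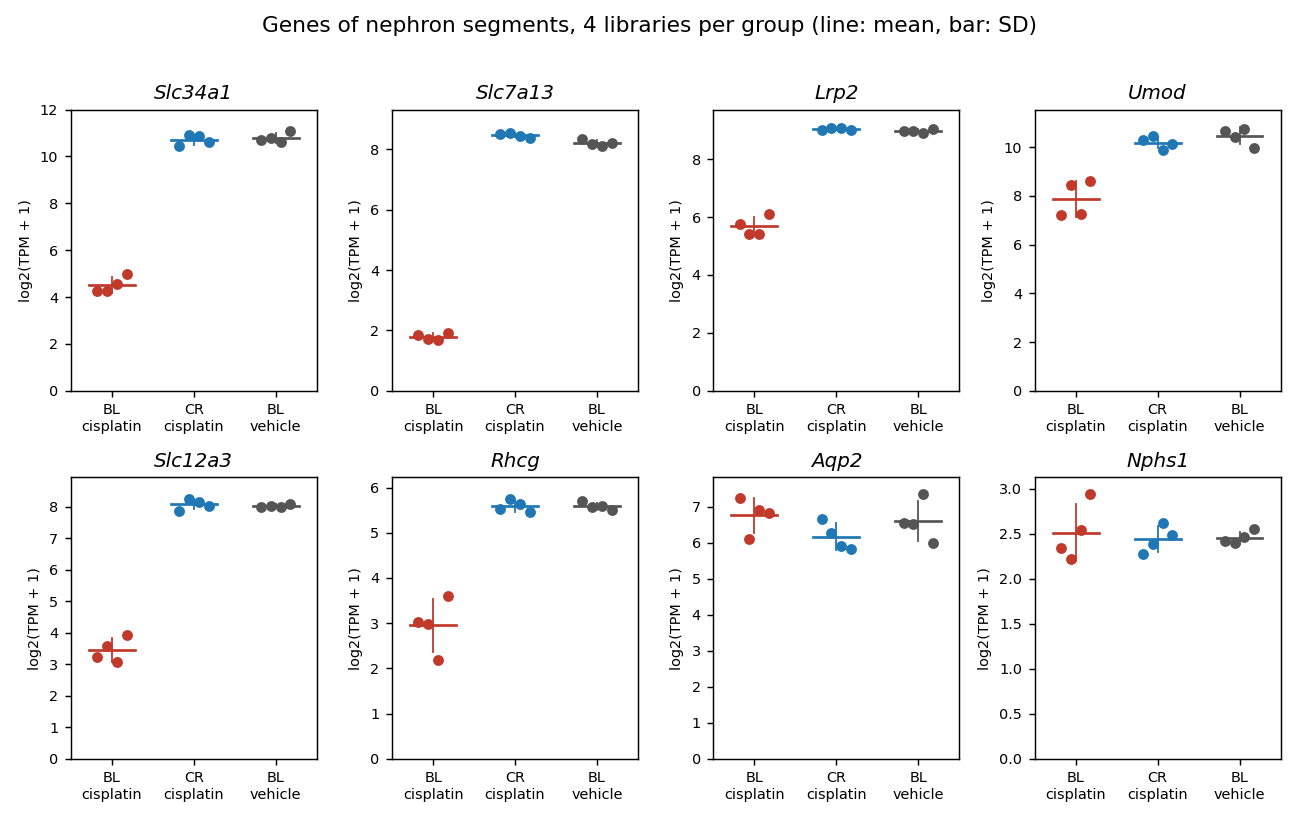
Each panel shows log2(TPM + 1) of 1 gene in the 4 libraries of BL_cisplatin, CR_cisplatin and BL_vehicle, with the group mean as a line and the SD as a bar. Slc34a1, Slc7a13, Lrp2, Umod, Slc12a3 and Rhcg are low in BL_cisplatin without overlap, while Aqp2 of principal cells and Nphs1 of podocytes overlap between groups.

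Beyond the proximal tubule, segments differed in how far their markers moved. In the thick ascending limb, which drives the dilution of urine, 14 of 15 markers rose with a median of 2.31. Umod, which encodes uromodulin, measured 146, 349.6, 154 and 389 TPM without and 1259, 1396, 949 and 1122 TPM with calorie restriction. No library overlapped, and BL_vehicle spanned 1012 to 1743 TPM (log2 fold change 2.31, SE 0.36, limma adjusted p = 1.05e-04). Egf, the growth factor this segment sheds into urine, differed most, with 2.37, 4.16, 2.60 and 5.40 TPM in BL_cisplatin and 174, 206, 162 and 177 TPM in CR_cisplatin. That is a log2 fold change of 5.33 (SE 0.67). The loop diuretic target Slc12a1 had 3.20 and the calcium-sensing receptor Casr 2.85. In the distal convoluted tubule all 17 markers rose, with a median of 1.89. The thiazide target Slc12a3 measured 8.34, 10.9, 7.46 and 14.2 TPM in BL_cisplatin and 233, 302, 284 and 259.9 TPM in CR_cisplatin. Every CR_cisplatin library was far above the BL_cisplatin ones (log2 fold change 4.62, SE 0.56). Kl, the klotho coreceptor of FGF23, measured 4.93 to 10.4 TPM without and 83.3 to 129 TPM with calorie restriction (3.72). Pvalb, which encodes parvalbumin, had a log2 fold change of 3.54, and the magnesium channel Trpm6 of 1.29.

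Collecting duct markers were mixed. Of 15 principal cell markers 7 rose and 2 fell (median 0.46), and of 16 intercalated cell markers 10 rose and 2 fell (median 1.08). The sodium channel subunit Scnn1g rose (1.22), whereas the vasopressin-regulated water channel Aqp2 was not called, with 149, 67.3, 119.9 and 112 TPM in BL_cisplatin and 101, 76.0, 59.4 and 56.2 TPM in CR_cisplatin. Its groups overlapped, and BL_vehicle ran from 62.7 to 164 TPM. Fxyd4, a regulator of the sodium pump, fell (-0.80), but not without BL_cisplatin 4 and CR_cisplatin 4 (-0.63 (limma adjusted p = 0.0872)). In intercalated cells, which secrete acid or base, the ammonia channel Rhcg measured 7.20, 6.88, 3.56 and 11.2 TPM without and 45.0, 52.8, 48.4 and 43.2 TPM with calorie restriction. The groups were fully separate (log2 fold change 2.64, SE 0.37), and the anion exchanger Slc26a4 (pendrin, 1.47) and the proton pump subunit Atp6v1b1 (1.53) rose too. Foxi1, the factor that specifies these cells, was not called and overlapped at 7.03 to 9.83 and 7.09 to 10.2 TPM, as did the exchanger Slc4a9.

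The medians of glomerular, vascular and stromal markers were small beside those of most tubule lists, with members that went both ways. Of 14 podocyte markers 5 rose and 2 fell (median 0.18), of 15 endothelial markers 6 rose and 3 fell (0.07), and of 11 smooth muscle and fibroblast markers 1 rose and 4 fell (-0.07). The slit diaphragm gene Nphs1 was not called, at 3.65 to 6.68 TPM in BL_cisplatin and 3.85 to 5.16 TPM in CR_cisplatin. Synpo, which encodes an actin-binding protein of podocytes and other cells, fell (-1.05), and Clic5 rose (1.32). Without BL_cisplatin 4 the podocyte markers called higher were 8. Among endothelial genes the receptors Kdr (1.15) and Tek (1.14) and the glomerular endothelial gene Ehd3 (1.21) rose, Nos3, endothelial nitric oxide synthase, fell (-0.88), and Pecam1 was not called. The 4 smooth muscle and fibroblast markers that fell, fibrillar collagen chains among them, had log2 fold changes of -1.57 to -0.40. The marker of that list that rose was Ren1, which encodes renin. Ren1 measured 17.1, 14.1, 16.5 and 11.9 TPM in BL_cisplatin and 75.6, 54.4, 75.8 and 27.0 TPM in CR_cisplatin. CR_cisplatin 1 to 4 were spread widely but all lay above BL_cisplatin, and BL_vehicle ran from 27.8 to 53.7 TPM (log2 fold change 1.80, SE 0.31, limma adjusted p = 2.24e-04).

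Injury and dedifferentiation genes were low in kidneys with calorie restriction. Of 32 members none rose and 31 fell, with a median of -2.99, and in 29 the libraries did not overlap. Of the 31, 9 reached 1 TPM in fewer than 4 of the CR_cisplatin and BL_vehicle libraries. Havcr1, the KIM-1 gene (chromosome 11, 46735080 to 46779578, plus strand), measured 400.0, 344, 298 and 489 TPM in BL_cisplatin and 1.94, 0.317, 0.989 and 0.518 TPM in CR_cisplatin. CR_cisplatin 2 to 4 lay within the BL_vehicle range of 0.306 to 1.33 TPM and CR_cisplatin 1 above it (log2 fold change -7.67, SE 1.30, limma adjusted p = 1.91e-04). Lcn2, the NGAL gene, measured 279.8, 305, 292 and 243 TPM without and 2.43, 0.634, 1.19 and 0.717 TPM with calorie restriction. CR_cisplatin 1 was the highest of its group, still far under any BL_cisplatin library (-7.03, SE 1.01). Krt20, a keratin otherwise typical of urothelium and gut, measured 414, 414, 429 and 369 TPM in BL_cisplatin and 1.29, 0.0585, 0.0551 and 0.0887 TPM in CR_cisplatin. It had the largest fall of all genes the rule named (-8.30, SE 1.24, limma adjusted p = 9.11e-05).

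The list median against BL_vehicle was 3.04 in BL_cisplatin and 0.04 in CR_cisplatin, comparisons that share libraries. The abundant matrix phosphoprotein Spp1 (osteopontin) measured 4081, 4486, 4173 and 5752 TPM without and 354, 329, 343 and 334 TPM with calorie restriction, a log2 fold change of -3.75. Keratins Krt8 (-2.74), Krt18 (-3.14) and Krt19 (-3.06) of simple epithelia fell. Sox9, a factor of repairing tubule cells, measured 5.61 to 7.24 TPM in BL_cisplatin and 0.0323 to 0.161 TPM in CR_cisplatin (-2.77). Plaur, the urokinase receptor (-4.28), and Timp1 (-3.43) fell as well. Vcam1, an adhesion molecule that has been used to mark tubule cells in failed repair, was the member not called: BL_cisplatin measured 1.70, 0.919, 0.790 and 6.34 TPM and CR_cisplatin 1.16, 0.934, 1.23 and 1.03 TPM, and the groups overlapped.

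Small proline-rich proteins and S100 proteins, structural and calcium-binding proteins better known from stressed skin, were among the genes with large falls. Sprr1a measured 163, 172, 176 and 145 TPM in BL_cisplatin and 1.16, 0.734, 1.02 and 6.30 TPM in CR_cisplatin. CR_cisplatin 4 was the highest of its group, and the groups did not overlap (-5.92, SE 0.76). Sprr2f stood at 24.3 to 53.8 TPM against 0 to 0.0877 TPM, S100a6 at 149 to 280.0 against 4.41 to 7.45 TPM (-4.81), and S100a11 at 269.9 to 307 against 31.3 to 38.9 TPM (-3.06). The RefSeq promoter windows of Sprr1a and S100a11, 250 bases ending at the start site on GRCm38.p6, each hold 2 matches to the AP-1 site TGAGTCA, the site of FOS and JUN dimers, whose own genes are described below. They are shown with these matches (either strand) in capitals.
Sprr1a, chr3:92485882-92486131, minus strand: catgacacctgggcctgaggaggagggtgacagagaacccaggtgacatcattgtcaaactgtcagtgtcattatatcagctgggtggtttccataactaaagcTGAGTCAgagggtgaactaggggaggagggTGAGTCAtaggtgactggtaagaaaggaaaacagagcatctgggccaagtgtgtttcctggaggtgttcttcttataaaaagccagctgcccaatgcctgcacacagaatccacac
S100a11, chr3:93520246-93520495, plus strand: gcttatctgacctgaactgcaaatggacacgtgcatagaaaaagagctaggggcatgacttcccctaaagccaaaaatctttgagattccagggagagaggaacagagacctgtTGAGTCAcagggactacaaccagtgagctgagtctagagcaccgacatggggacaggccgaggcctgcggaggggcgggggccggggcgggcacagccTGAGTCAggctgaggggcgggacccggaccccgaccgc
The matches begin 146 and 116 bases before the start of Sprr1a and 136 and 38 bases before that of S100a11. Of 24 injury genes with a window 6 held the site (25.0%: Sprr1a, Sprr2f, S100a11, Plaur, Anxa2 and Prom1), against 5.162% of 27025 genes. Among these 6, Prom1 had the smallest difference (-0.40), which did not pass without BL_cisplatin 1, 3 or 4 or without CR_cisplatin 2 or 4 (range -0.41 to -0.30). The site is not particular to injury genes: 23.529% of NF-kB feedback genes and chemokines, 15.789% of NRF2 targets and metallothioneins and 15.0% of interferon-stimulated genes held it.

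Fibrinogen chains and acute phase genes, products mainly of the liver that injured tubules also make, fell in 12 of 14 tested members, with a median of -1.46, though 6 of the 12 reached 1 TPM in fewer than 4 of the CR_cisplatin and BL_vehicle libraries. Fgg measured 283, 209, 261 and 334 TPM without and 1.85, 0.848, 1.47 and 1.34 TPM with calorie restriction, with no overlap (-6.84, SE 0.91). Fga (-4.86) and Fgb (-4.96) fell with it, and so did Socs3, the feedback inhibitor of IL-6 type cytokines (-3.11), and Stat3 (-1.35). Hp, the haptoglobin gene, was not called: BL_cisplatin 4 measured 91.6 TPM and CR_cisplatin 4 11.4 TPM, against at most 3.90 TPM in the other 6 libraries. These are the libraries with adipose transcripts, and the part of those transcripts in the Hp values was not tested. Gc, the vitamin D binding protein, was 1 of the 12 falls named by the rule, with 174 to 259 TPM without and 3.51 to 6.18 TPM with calorie restriction (-5.25).

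**Figure D3:**
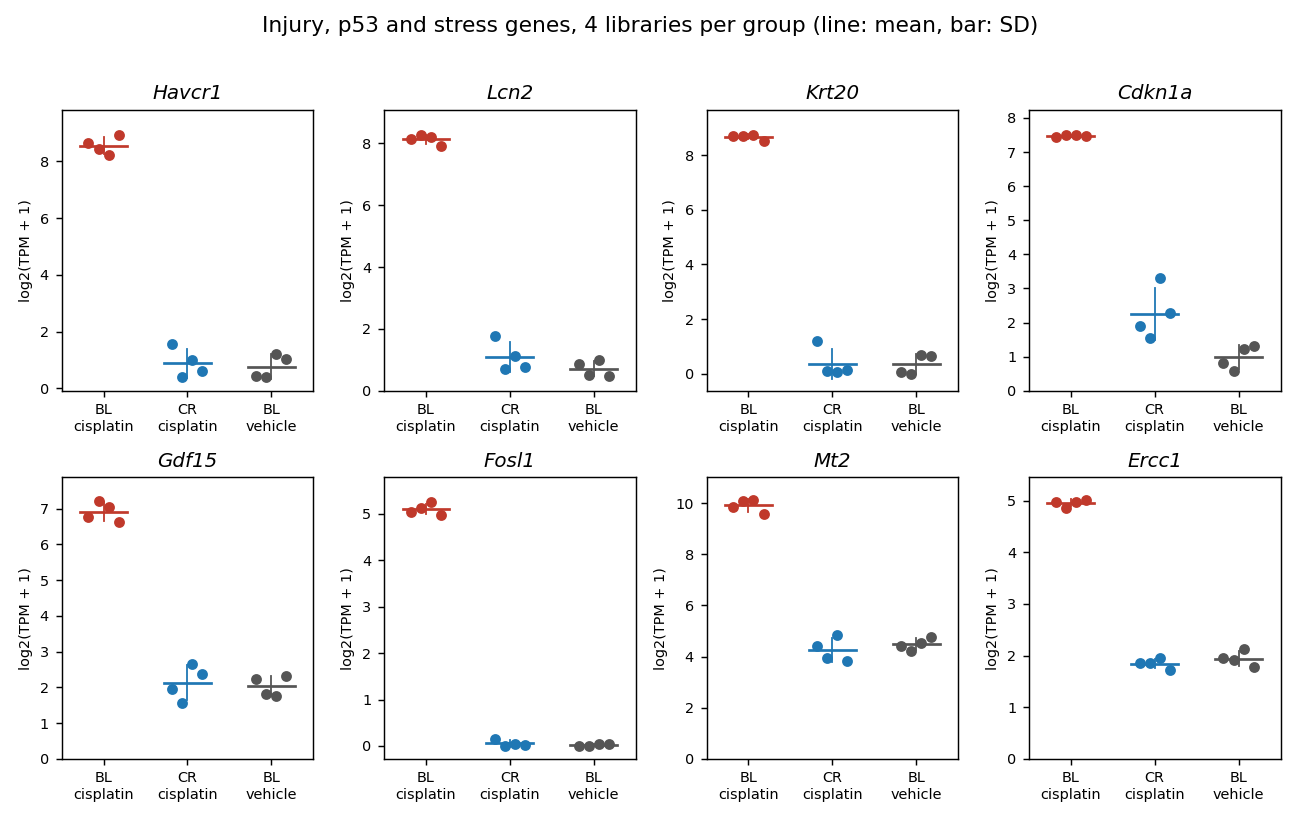
Each panel shows log2(TPM + 1) of 1 gene in the 4 libraries of BL_cisplatin, CR_cisplatin and BL_vehicle, with the mean as a line and the SD as a bar. All 8 genes are high in BL_cisplatin and low in the other groups, with Cdkn1a in CR_cisplatin between 1.94 and 9.0 TPM against 0.494 to 1.47 TPM in BL_vehicle.

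Immediate early genes, transcription factors that cells switch on within minutes of a stimulus, were all lower: 15 of 15 tested members fell, with a median of -2.15, 4 of them with fewer than 4 of the CR_cisplatin and BL_vehicle libraries at 1 TPM. Fosl1, the FRA1 gene, measured 32.1, 33.8, 36.9 and 30.6 TPM in BL_cisplatin and 0.110, 0, 0.0311 and 0.0143 TPM in CR_cisplatin. It was at or near 0 in every library with calorie restriction (-5.05, SE 0.74), though 57.2% of its exon bases overlap Ccdc85b on the other strand. Atf3 (-3.39), Junb (-3.02), Myc (-2.43) and Jun (-1.77) fell. Egr1 varied within its group, with 1.30, 1.72, 8.19 and 0.419 TPM in CR_cisplatin 1 to 4 against 19.4, 21.5, 21.6 and 22.0 TPM in BL_cisplatin, and its call was lost with the prefix as a term. Klf6 and Klf4 lay below both other groups, with Klf6 at 8.36 to 9.55 TPM in CR_cisplatin, 61.1 to 72.8 in BL_cisplatin and 9.71 to 12.2 in BL_vehicle. No window of the 11 immediate early genes in the promoter table held the AP-1 letters, which says only that TGAGTCA is not in those 250 bases.

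Targets of p53, the factor that DNA damage stabilises, fell almost throughout. Among genes of cell cycle arrest and of p53 feedback, 22 of 24 fell and none rose, with a median of -2.07. Cdkn1a, the p21 inhibitor of cyclin-dependent kinases (chromosome 17, 29090976 to 29100727, plus strand), measured 172, 179, 181 and 177 TPM in BL_cisplatin and 2.74, 1.94, 9.0 and 3.84 TPM in CR_cisplatin. BL_vehicle ran from 0.494 to 1.47 TPM, so all 4 CR_cisplatin libraries lay above all BL_vehicle libraries and far below BL_cisplatin (log2 fold change -5.21, SE 0.86, limma adjusted p = 1.53e-04). Against BL_vehicle the Cdkn1a difference was 1.28 (limma adjusted p = 1), which did not pass. Other targets also lay above BL_vehicle in part or in full: Phlda3, a p53-induced inhibitor of AKT, measured 3.38, 2.69, 9.47 and 7.16 TPM in CR_cisplatin against 2.25 to 4.35 TPM in BL_vehicle and 70.1 to 87.8 in BL_cisplatin, so that CR_cisplatin 3 and 4 were above the vehicle range. Ccng1, cyclin G1, measured 78.5, 76.1, 137 and 93.4 TPM in CR_cisplatin, above the 56.2 to 70.7 TPM of BL_vehicle and below the 254 to 332 TPM of BL_cisplatin. CR_cisplatin 3 was the highest of its group in Cdkn1a, Phlda3 and Ccng1. Mdm2, the ligase that degrades p53, had a log2 fold change of -2.53, Gdf15, a secreted stress cytokine, of -4.78, and Btg2, an antiproliferative gene, of -4.38. Sesn1 and Rrm2b were the members not called, at 4.18 to 5.06 and 4.65 to 5.47 TPM for Sesn1. Ccnd1, cyclin D1, was lower in CR_cisplatin (31.5 to 42.0 TPM) than in BL_cisplatin (52.9 to 97.4 TPM) and BL_vehicle (48.3 to 81.5 TPM), a call that was lost without any 1 of 7 libraries, BL_cisplatin 3 being the exception (-0.85, and -0.90 to -0.70 without these).

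Of 14 pro-apoptotic p53 targets, 13 fell and 1 rose, with a median of -1.94, and 4 of the 13 had fewer than 4 of the CR_cisplatin and BL_vehicle libraries at 1 TPM. Bax, which opens the outer mitochondrial membrane, measured 73.0, 75.2, 68.1 and 73.9 TPM without and 19.8, 21.7, 29.6 and 23.5 TPM with calorie restriction. The groups were well apart (-1.59, SE 0.28). Bbc3, the PUMA gene (-2.22), Pmaip1, the NOXA gene (-2.48), and the death receptor Tnfrsf10b (-2.89) fell. Bid, which links death receptors to mitochondria, went the other way, with 8.95 to 11.4 TPM without and 15.2 to 21.7 TPM with calorie restriction (0.82). Other genes of regulated cell death fell in 8 of 15 tested members and rose in 3. Of the 8 that fell, 3 reached 1 TPM in fewer than 4 of the CR_cisplatin and BL_vehicle libraries. The necroptosis genes Ripk3 (-1.86) and Mlkl (-2.46) and the lipid enzyme Acsl4 of ferroptosis (-2.23) fell. Gpx4, which protects against ferroptosis, rose slightly (0.49). Dnase1, the secreted nuclease of the tubule, rose (4.65), with 4.68 to 6.40 TPM in BL_cisplatin and 139 to 198 TPM in CR_cisplatin.

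Genes for the repair of platinum adducts moved less than the p53 targets: 2 of 23 tested members rose and 9 fell, with a median of -0.12. The share that fell is near the 37.4% of all genes tested. Of the 9 that fell, 3 reached 1 TPM in fewer than 4 of the CR_cisplatin and BL_vehicle libraries. Ercc1, the partner of the XPF nuclease that cuts beside platinum adducts, was the exception in size, with 30.4, 28.0, 30.4 and 31.4 TPM in BL_cisplatin and 2.61, 2.60, 2.84 and 2.30 TPM in CR_cisplatin. CR_cisplatin 1 to 3 lay within the BL_vehicle range of 2.43 to 3.37 TPM, CR_cisplatin 4 just under it, and all far below BL_cisplatin (log2 fold change -3.11, SE 0.49, limma adjusted p = 1.14e-04). Its partner nuclease gene Ercc4 was not called, at 3.24 to 3.97 and 2.77 to 3.51 TPM, nor were the damage sensors Xpc and Xpa. Ercc5, the XPG nuclease, fell (-1.56). Overlap with the neighbouring Cd3eap takes 3.41% of the Ercc1 exon bases. When mitochondrial and red blood cell genes and the 10 of highest level were left out, 15 members were called lower in place of 9, and with quantile normalization 6 were called higher in place of 2. Among cell cycle genes the ribonucleotide reductase subunit Rrm2 (-1.96), Pcna (-0.79) and Mki67 (-0.86, and -0.53 with the prefix as a term, which rests on CR_cisplatin 1) fell. Of 25 members 10 were too low to test, and 14 of the 15 tested fell, but 8 of these reached 1 TPM in fewer than 4 of the CR_cisplatin and BL_vehicle libraries, so the filter partly sets this count.

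Transporters that carry platinum or copper moved both ways. Of 20 tested, 7 rose and 11 fell, with a median of -0.45. The basolateral uptake carrier Slc22a2 (OCT2) measured 26.0, 20.5, 18.6 and 29.3 TPM in BL_cisplatin and 155, 177, 158 and 156 TPM in CR_cisplatin. Its CR_cisplatin libraries were above both BL_cisplatin and BL_vehicle (118 to 140.2 TPM), with a log2 fold change of 2.74 (SE 0.34, limma adjusted p = 5.83e-05). The copper carrier Slc31a1, CTR1 (0.97), and the apical exporter Slc47a1, MATE1 (2.08), rose as well. Slc47a1 measured 45.8 to 55.0 TPM without and 203 to 228 TPM with calorie restriction. Several ATP-driven exporters fell: Abcb1b, a P-glycoprotein gene, measured 13.8, 11.8, 11.3 and 16.1 TPM in BL_cisplatin and 0.665, 0.539, 0.698 and 0.523 TPM in CR_cisplatin. No libraries overlapped (-3.14, SE 0.54), and its close copy Abcb1a also fell (-1.24), with reads that the counting could have split between them. Abcc3 (-2.49) and Abcc4 (-1.52) fell, and Abcc2 (-0.32) was not called. These levels are from 72 h after the injection and say nothing of the levels at the time of platinum uptake.

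Targets of NRF2, the factor of the oxidant response, and metallothioneins fell in 19 of 23 tested members, and 1 rose (median -1.36). Mt2, a metal-binding protein, measured 926, 1081, 1122 and 771 TPM without and 20.3, 14.3, 27.7 and 13.3 TPM with calorie restriction. The groups were far apart (-5.66, SE 0.80), though 73.5% of the Mt2 exon bases overlap the antisense gene Gm45774. Mt1, a similar gene, fell with it (-4.41). Srxn1, sulfiredoxin (-3.96), Hmox1, haem oxygenase (-2.94), Nqo1 (-2.21; not past the threshold with the prefix as a term) and Gclc, the first enzyme of glutathione synthesis (-1.48), fell, and the NADPH enzymes G6pdx (-1.59) and Pgd (-1.78) fell while Me1, malic enzyme, rose above both other groups, with 94.3 to 114 TPM against 46.3 to 56.3 in BL_cisplatin and 82.3 to 92.5 in BL_vehicle. The iron storage chain Fth1 fell by 1.90 on the log2 scale, and its partner Ftl1 was not called (-0.19). Of 19 members with a promoter window 4 held the antioxidant response core TGACNNNGC (21.053%: Gclm, Mt2, Txnrd1 and G6pdx), against 11.515% of all windows. Other lists had as high a share or higher, up to 29.412% in the cisplatin and copper transporters.

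Nuclear genes of oxidative phosphorylation rose nearly throughout. Of 42 tested subunits 41 rose, with a median of 0.95, and the log2 fold changes ran from 0.10 to 1.61. Ndufs1, a core subunit of complex I, measured 10.8, 10.1, 9.30 and 14.3 TPM in BL_cisplatin and 36.4, 35.6, 34.9 and 35.9 TPM in CR_cisplatin. The CR_cisplatin libraries lay close together and above both BL_cisplatin and BL_vehicle (33.8 to 34.8 TPM), with a log2 fold change of 1.61 (SE 0.22, limma adjusted p = 6.27e-05). Atp5b, the catalytic subunit of ATP synthase, measured 262, 249.6, 244 and 288 TPM without and 602, 610.1, 598 and 618 TPM with calorie restriction, and BL_vehicle 564 to 596 TPM. Cycs, cytochrome c, was the member not called, at 71.9 to 104 and 93.1 to 97.8 TPM. In 13 of the 42 all CR_cisplatin libraries were above all libraries of both other groups, against 409 of 15014 genes (2.72%), or 9.13% of the 4480 genes called higher, which 41 of the 42 are. That number was 16 with the abundant genes left out, 6 with quantile normalization and 16 without CR_cisplatin 4, and the list median against BL_vehicle was 0.08 in CR_cisplatin, beside -0.87 in BL_cisplatin.

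Transcripts of the mitochondrial genome rose in 11 of 12 tested genes, with a median of 0.79. The apocytochrome mt-Cytb measured 2404, 2218, 2329 and 2972 TPM in BL_cisplatin and 6703, 6269, 5861 and 6821 TPM in CR_cisplatin, without overlap (1.38, SE 0.25). Copies of these genes lie in the nuclear genome, and how reads with several matches were counted is not given in the sources used here. In these libraries mt-Co2 is listed at 0.352 to 0.754 TPM in BL_cisplatin and 0.535 to 1.48 in CR_cisplatin, with mt-Co3 and mt-Atp6 likewise near 1 TPM, while mt-Co1 measured 8022 to 8662 and 12166 to 13284 TPM. The rise of mt-Co1 (0.58) turned to a fall with quantile normalization (-0.22 (limma adjusted p = 0.0260)), so the size and sign for the most abundant of these genes are uncertain. All 20 enzymes of the tricarboxylic acid cycle rose, with a median of 1.13. Mdh1, cytosolic malate dehydrogenase, measured 83.0, 70.7, 72.9 and 97.5 TPM without and 357, 358, 340.2 and 353 TPM with calorie restriction (2.12, SE 0.28). The NADP-linked Idh2 had 2.11. The smallest differences were those of Mdh2 (0.31) and of Cs, citrate synthase (0.35), which no longer passed with quantile normalization.

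Genes of sugar metabolism moved both ways. Of 21 genes of glycolysis and gluconeogenesis 11 rose and 3 fell (median 0.36), and 6 fell with each of the other scalings. The gluconeogenic G6pc, glucose-6-phosphatase, measured 14.5, 14.2, 13.2 and 21.2 TPM in BL_cisplatin and 281, 166, 252 and 190.2 TPM in CR_cisplatin. The groups did not overlap (log2 fold change 3.73, SE 0.62). Fbp1 rose as well (2.71), whereas Pck1, the enzyme that commits carbon to glucose, was not called (0.83), with 614, 355, 422 and 598 TPM in BL_cisplatin and 864, 709.8, 679 and 1309 TPM in CR_cisplatin. The genes that fell were Hk2, an inducible hexokinase (-1.88), the activator enzyme Pfkfb3 (-1.51) and the carrier Slc2a1, GLUT1 (-1.70). Aldoa, an aldolase found in most tissues, was not called, at 211 to 259 and 226 to 239.5 TPM.

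Fatty acid and ketone genes, which fasting usually raises, did not rise together. Of 25 genes of fatty acid oxidation 10 rose and 5 fell, beside 29.8% and 37.4% of all genes tested (median 0.11; 9 fell with the abundant genes left out, 10 with quantile normalization and 3 without CR_cisplatin 1, 2 or 3 or BL_cisplatin 3), and of 22 ketone body and fasting response genes 10 rose and 10 fell (median -0.08). Genes for ketone body use rose: Oxct1, the transferase that starts it, measured 31.1, 31.9, 28.2 and 47.1 TPM in BL_cisplatin and 351, 344, 332 and 362 TPM in CR_cisplatin (3.32, SE 0.48), and Bdh1 (3.16) and Acat1 (2.77) rose beside it. Several genes that fasting and PPAR-alpha induce fell, among them Pdk4, which shuts pyruvate dehydrogenase (-4.13), Plin2, which coats lipid droplets (-4.08), Angptl4 (-1.68) and, in multigene families, Cyp4a14 (-4.16) and Cyp4a10 (-2.13). Pdk4 measured 116, 191, 168 and 84.0 TPM without and 6.18, 4.65, 4.28 and 15.1 TPM with calorie restriction. Slc16a1, a carrier of ketone bodies and lactate, fell (-1.01), and its CR_cisplatin libraries, at 11.6 to 16 TPM, lay above the BL_vehicle range of 7.20 to 8.19 TPM. Cidec, a fat droplet gene, fell (-2.84), with 14.4, 16.4, 22.0 and 37.5 TPM in BL_cisplatin and 0.317, 0.607, 1.22 and 18.1 TPM in CR_cisplatin, and the high CR_cisplatin 4, a library with adipose transcripts, overlapped BL_cisplatin. Acadm (1.82) and Hadh (1.5) of mitochondrial oxidation rose.

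Enzymes of sulfur amino acids were higher in 12 of 16 tested members and lower in 2, with a median of 1.29. Cth, cystathionine gamma-lyase, which makes cysteine and hydrogen sulfide and has been tied to the response to dietary restriction in mice, measured 16.1, 13.0, 12.2 and 17.4 TPM in BL_cisplatin and 50.3, 48.7, 52.5 and 46.3 TPM in CR_cisplatin. The groups did not overlap, and CR_cisplatin lay within the BL_vehicle range of 44.2 to 54.1 TPM (log2 fold change 1.70, SE 0.25, limma adjusted p = 8.05e-05). Cbs, the enzyme before it, rose too (1.81). The taurine enzymes diverged, Csad rising (2.81) and Cdo1 falling (-0.79). Genes of NAD synthesis and use rose in 15 of 20 tested members, with 1 lower (median 0.97). Acmsd, which diverts the kynurenine pathway away from NAD, measured 0.528, 0.321, 0.508 and 0.808 TPM without and 24.3, 28.4, 27.3 and 30.7 TPM with calorie restriction. It was above both other groups (BL_vehicle 15.3 to 22.1 TPM), with a log2 fold change of 4.22 (SE 0.63). Haao (3.25) and Qprt (2.03), further steps of NAD synthesis from tryptophan, and the mitochondrial deacetylase Sirt3 (1.76) rose, Bst1, an NAD glycohydrolase, fell (-2.30; not past the threshold with the prefix as a term), and Nampt and Sirt1 were not called, with Sirt1 at 5.21 to 5.68 and 4.63 to 5.52 TPM.

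Cholesterol synthesis genes rose in 15 of 28 tested members and fell in 4 (median 0.50). The largest rises were those of Cyp51 (3.29), Mvd (2.33) and Hmgcs1 (2.03), while Msmo1 fell (-0.96) and the regulators Srebf1 and Srebf2 were not called. Cyp51 measured 4.52, 4.16, 4.86 and 5.04 TPM in BL_cisplatin and 51.8, 63.0, 43.4 and 60.6 TPM in CR_cisplatin. Scd1, stearoyl-CoA desaturase, was not called (1.87), with 19.3, 23.0, 30.5 and 292 TPM in CR_cisplatin 1 to 4 and 5.86, 5.79, 6.74 and 69.1 TPM in BL_cisplatin 1 to 4. In both groups the library with adipose transcripts was the highest, and the part of those transcripts in the result was not tested. Cytochrome P450 genes rose in 11 of 19 tested members and fell in 4 (median 1.64), led by Cyp2d12 (5.41), Cyp2e1 (4.75) and Cyp2j11 (4.38), all from multigene families. The vitamin D enzymes Cyp24a1 and Cyp27b1 were not called, at 13.0 to 50.4 and 10.5 to 48.0 TPM for Cyp24a1.

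Clock genes moved in both directions. The clock of each cell rests on the activators BMAL1 (the product of Arntl) and CLOCK or NPAS2, on the PER and CRY repressors they induce, and on the REV-ERB and ROR receptors that act on Arntl. Of 18 tested members 7 rose and 4 fell, with a median of 0.11, beside 29.8% higher and 37.4% lower and a median of -0.08 over all genes tested. The rises of Arntl, Cry1 (0.27) and Per3 (0.23) were small and did not pass with the abundant genes left out, with voom or without BL_cisplatin 3, which leaves 4, those of Hlf, Tef and Per2 among them. Arntl measured 3.94, 4.05, 4.07 and 6.13 TPM in BL_cisplatin, 5.67, 6.69, 6.56 and 9.99 TPM in CR_cisplatin and 2.72, 2.38, 1.43 and 1.72 TPM in BL_vehicle. CR_cisplatin 4 was the highest, the cisplatin groups overlapped slightly, and every cisplatin library lay above every BL_vehicle library (CR_cisplatin minus BL_cisplatin 0.56, SE 0.21, limma adjusted p = 0.0268, and CR_cisplatin minus BL_vehicle 1.42, limma adjusted p = 0.0172). Without CR_cisplatin 4 the difference between the cisplatin groups was 0.41 (limma adjusted p = 0.0945). Its partner Npas2 was not called and measured 1.37 to 1.87 TPM in BL_cisplatin, 1.09 to 2.37 in CR_cisplatin and 0.235 to 0.547 in BL_vehicle.

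Nr1d1, which encodes the repressor REV-ERB alpha, fell furthest of the clock genes, to a level below both other groups. It measured 10.6, 12.4, 11 and 11.2 TPM in BL_cisplatin, 1.04, 1.18, 0.820 and 1.29 TPM in CR_cisplatin and 4.82, 4.64, 5.83 and 4.89 TPM in BL_vehicle. All 4 CR_cisplatin libraries were below all others (log2 fold change -2.56, SE 0.38, limma adjusted p = 9.17e-05), while against BL_vehicle the difference of -1.54 did not pass with all 16 libraries (limma adjusted p = 0.589) and passed without HP_cisplatin (limma adjusted p = 5.75e-06). Thra, on the other strand, shares 8.55% of the Nr1d1 exon bases. Per1 fell (-1.37) to a range that spans that of BL_vehicle (5.35 to 12.8 TPM against 20.6 to 24.7 in BL_cisplatin and 7.77 to 11.1 in BL_vehicle), while Per2 rose (1.24), at 5.97 to 8.63 TPM in BL_cisplatin and 17.2 to 20.4 in CR_cisplatin, and lay below the 26.2 to 29.3 TPM of BL_vehicle. The output factors Hlf (2.84) and Tef (1.28) rose: Hlf measured 1.41, 0.916, 0.912 and 2.27 TPM without and 14.8, 15.2, 17.3 and 15.0 TPM with calorie restriction.

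A further set of clock genes lay below the vehicle level in both cisplatin groups. Dbp measured 3.97, 4.09, 2.77 and 4.69 TPM in BL_cisplatin, 5.87, 4.68, 4.64 and 3.11 TPM in CR_cisplatin and 16.7, 16.4, 23.3 and 22.3 TPM in BL_vehicle. The cisplatin groups overlapped and both lay below BL_vehicle, and the same order held for Nr1d2 (12.1 to 13.2, 11.2 to 17.1 and 25.7 to 31.4 TPM), Ciart (0.865 to 1.23, 0.518 to 0.963 and 1.80 to 4.07 TPM) and Per3 (3.29 to 3.72, 3.49 to 4.80 and 8.86 to 9.83 TPM). Between CR_cisplatin and BL_vehicle, which share no libraries, limma called 8 of 15014 genes (0.0533%; 610 at an unadjusted p under 0.05): Arntl and Leo1 were higher in CR_cisplatin (0.0133%), and Dbp, Nr1d2, Per3, Ciart, Coq10b and H2-DMa lower (0.04%). Without HP_cisplatin, whose libraries differ most among themselves, the same fit called 65 (40 higher and 25 lower), which hold all 8, and 8 members of the clock list: Arntl and Npas2 higher, and Nr1d1, Nr1d2, Dbp, Per2, Per3 and Ciart lower. Without CR_cisplatin 4 it called 4 in place of 8, without CR_cisplatin 2 also 4, without CR_cisplatin 3 5, without BL_cisplatin 4 and CR_cisplatin 4 3, and without BL_vehicle 3 as well 4. A gene that misses the threshold here is not shown to have the vehicle level. Among the 8, Dbp shares 18% and H2-DMa 10.4% of its exon bases with a more abundant gene on the other strand.

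The promoter windows of Ciart and Per3 are shown because they hold the sites by which clock factors act, with the E-box CACGTG bound by BMAL1 dimers in capitals in Ciart and the D-box TTATGTAA bound by DBP, TEF and HLF in capitals in Per3.
Ciart, chr3:95882229-95882478, minus strand: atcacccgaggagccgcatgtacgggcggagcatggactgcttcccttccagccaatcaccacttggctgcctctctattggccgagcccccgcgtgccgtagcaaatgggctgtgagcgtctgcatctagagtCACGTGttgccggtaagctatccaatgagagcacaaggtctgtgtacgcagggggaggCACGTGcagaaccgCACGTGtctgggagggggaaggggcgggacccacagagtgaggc
Per3, chr4:151044666-151044915, minus strand: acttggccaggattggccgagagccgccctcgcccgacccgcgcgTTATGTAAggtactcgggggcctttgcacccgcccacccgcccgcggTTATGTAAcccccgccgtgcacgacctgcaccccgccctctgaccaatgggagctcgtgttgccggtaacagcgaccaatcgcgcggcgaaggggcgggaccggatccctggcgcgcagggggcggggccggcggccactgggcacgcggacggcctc
The E-boxes begin 116, 58 and 44 bases before the start of Ciart, and the D-boxes 205 and 158 bases before that of Per3. Among 16 clock genes with a window 5 held an E-box (31.25%: Ciart, Bhlhe41, Cry1, Per1 and Tef) against 6.86% of all windows, and 1 held the D-box (6.25%: Per3) against 0.977%. Other lists had higher shares: 41.667% of p53 pro-apoptotic targets and 35.714% of glucocorticoid-responsive genes held the E-box, and 1 of 10 thick ascending limb markers the D-box. Of the E-box genes that were tested, Per1 was lower, Tef and Cry1 higher and Ciart not called.

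**Figure D4:**
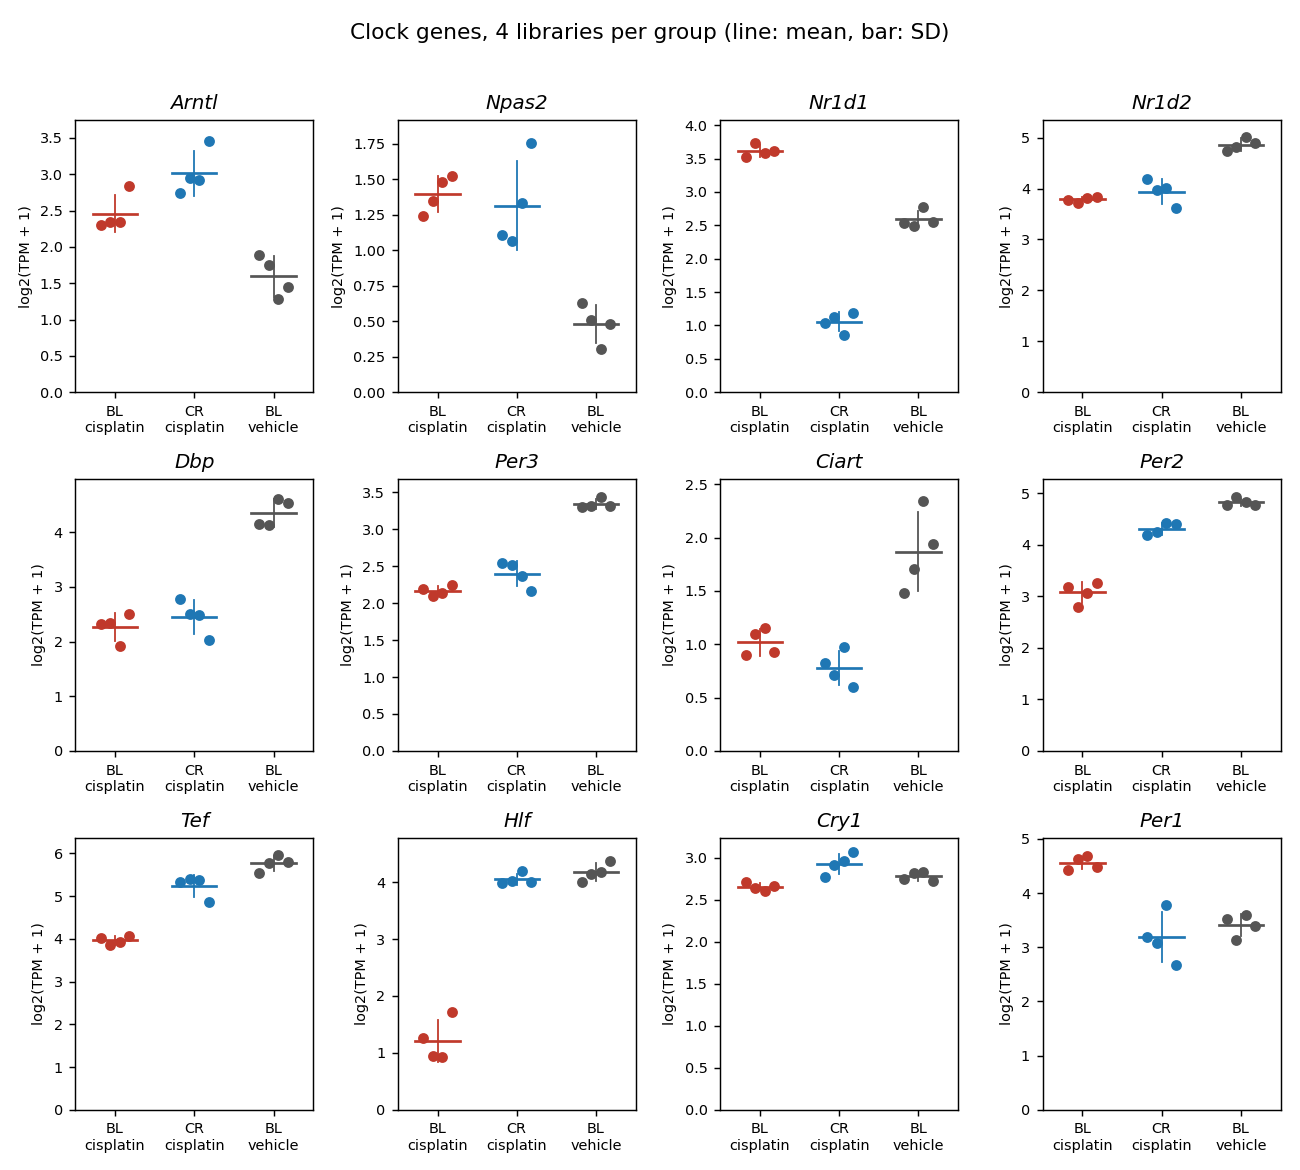
Each panel shows log2(TPM + 1) of 1 clock gene in the 4 libraries of BL_cisplatin, CR_cisplatin and BL_vehicle, with the mean as a line and the SD as a bar. Dbp, Nr1d2, Per3 and Ciart are lower in both cisplatin groups than in BL_vehicle, Nr1d1 is lowest in CR_cisplatin, and Hlf is lowest in BL_cisplatin (at 0.912 to 2.27 TPM against 14.8 to 17.3 in CR_cisplatin and 15.1 to 19.8 in BL_vehicle).

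Genes of the endoplasmic reticulum and of the integrated stress response, which slows translation under stress, did not move together: chaperones of the endoplasmic reticulum rose and most other members fell. Of 21 tested members 6 rose and 12 fell, with a median of -0.70. Hspa5, the BiP chaperone, measured 65.4, 57.2, 65.8 and 79.3 TPM in BL_cisplatin and 141, 125, 109 and 139 TPM in CR_cisplatin. These groups were separate, and BL_vehicle overlapped both at 72.5 to 117 TPM (log2 fold change 0.94, SE 0.20, limma adjusted p = 0.00112). Hsp90b1, the GRP94 chaperone, measured 54.7, 45.0, 49.1 and 68.3 TPM without and 117, 108, 95.0 and 126 TPM with calorie restriction. Every CR_cisplatin library was above both other groups (BL_vehicle 71.6 to 93.4 TPM), except after quantile normalization (1.04, SE 0.19). Pdia4 (0.86) and Sdf2l1 (0.97), a disulfide isomerase and a chaperone cofactor, rose too, and Dnajb11, another cofactor of BiP, was above both groups with 31.9 to 35.3 TPM against 11.9 to 16.1 and 22.3 to 26.7 TPM. Genes of the integrated stress response fell: Atf4, its central factor, measured 64.1, 70.7, 71.0 and 63.8 TPM in BL_cisplatin and 39.6, 42.5, 41.3 and 41.2 TPM in CR_cisplatin (-0.70, SE 0.12), and Ddit3, the CHOP gene, 12.7 to 14.2 and 5.02 to 6.03 TPM (-1.15). Both were below BL_vehicle as well, Atf4 by a narrow margin (42.5 to 45.9 TPM) and Ddit3 more clearly (6.94 to 11.9 TPM). Asns (-1.5), Psat1 (-2.0) and Ppp1r15a (-2.73) fell as well. Among heat shock genes the constitutive Hspa8 rose (1.25), the small Hspb1 fell (-3.03), and the inducible pair Hspa1a and Hspa1b was not called. The windows of Hspa5 and Hsp90b1 are shown because they hold the ER stress response element, CCAAT and CCACG with 9 bases of any kind between them, marked in capitals (either strand).
Hspa5, chr2:34771840-34772089, plus strand: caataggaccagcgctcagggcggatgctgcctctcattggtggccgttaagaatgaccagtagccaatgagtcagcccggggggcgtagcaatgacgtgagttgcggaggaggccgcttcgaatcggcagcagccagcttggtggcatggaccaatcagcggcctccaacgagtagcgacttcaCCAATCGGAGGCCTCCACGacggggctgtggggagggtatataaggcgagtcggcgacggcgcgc
Hsp90b1, chr10:86705445-86705694, minus strand: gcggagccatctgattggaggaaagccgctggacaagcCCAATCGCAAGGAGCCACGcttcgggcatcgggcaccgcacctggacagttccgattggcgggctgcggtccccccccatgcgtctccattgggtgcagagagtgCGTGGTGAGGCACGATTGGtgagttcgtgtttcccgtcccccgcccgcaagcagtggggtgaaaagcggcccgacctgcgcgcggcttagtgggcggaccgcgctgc
The element begins 65 bases before the start of Hspa5 and 212 and 107 bases before that of Hsp90b1. It was found in 2 of 20 windows of this list and in 35 of 27025 windows (0.13%).

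Antigen presentation genes split by class. Of 16 tested 5 rose and 9 fell, with a median of -0.33. The class II genes, expressed by macrophages, dendritic cells and B cells and at times by tubule cells, rose: H2-Aa measured 2.42, 2.17, 2.33 and 4.78 TPM in BL_cisplatin and 16.6, 18.8, 15.1 and 16.7 TPM in CR_cisplatin. The groups did not overlap (2.22, SE 0.35, limma adjusted p = 1.14e-04), and all CR_cisplatin libraries stayed below the BL_vehicle libraries, at 23.0 to 32.0 TPM. The same order was seen in H2-Ab1 (3.72 to 7.32, 17.5 to 21.5 and 28.1 to 34.7 TPM in BL_cisplatin, CR_cisplatin and BL_vehicle), H2-Eb1 (3.67 to 6.82, 22.9 to 26.7 and 33.7 to 43.4 TPM), the invariant chain Cd74 (10.8 to 22.0, 48.8 to 61.4 and 73.9 to 100.4 TPM) and the class II activator Ciita (0.0814 to 0.473, 0.580 to 0.930 and 1.45 to 1.80 TPM). H2-DMa, a class II peptide editor, had a difference of -0.20 that passed with all libraries but not with quantile normalization or without any 1 library other than CR_cisplatin 2 (-0.20 to -0.16), and lay below BL_vehicle. Beside these, summed lymphocyte markers were higher in CR_cisplatin than in BL_cisplatin (4.33 to 8.22 against 1.89 to 3.37 TPM, and 4.72 to 8.83 TPM in BL_vehicle). Summed macrophage markers were lower, mostly through Cd68, while of 12 tested macrophage markers 3 rose and 4 fell (median 0.17), counts that the filter partly sets. The part of these cells in the class II levels was not tested. The class I genes fell: H2-D1 measured 107, 105, 114 and 123 TPM without and 66.1, 65.0, 63.5 and 68.3 TPM with calorie restriction, and BL_vehicle 70.3 to 84.4 TPM. H2-D1 (-0.76), B2m (-0.61) and Tapbp (-1.07) were below both other groups, also with the abundant genes left out, with quantile normalization and without CR_cisplatin 4. Against BL_vehicle limma called none of them, with all 16 libraries or without HP_cisplatin, so a difference from BL_vehicle is not shown. The peptide pump Tap1 had the largest fall (-1.83).

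**Figure D5:**
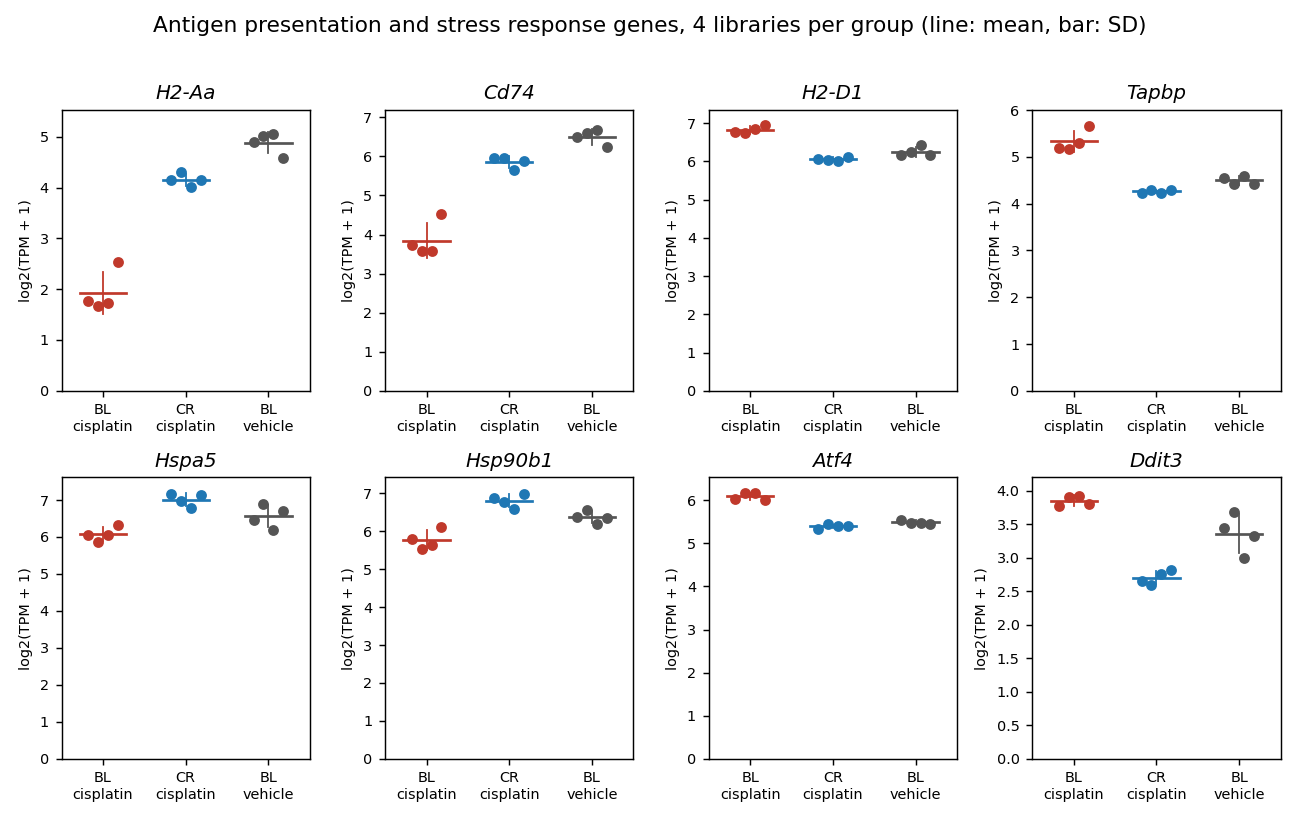
Each panel shows log2(TPM + 1) of 1 gene in the 4 libraries of BL_cisplatin, CR_cisplatin and BL_vehicle, with the mean as a line and the SD as a bar. H2-Aa and Cd74 in CR_cisplatin lie between the other groups, H2-D1, Tapbp, Atf4 and Ddit3 lie below both, and Hsp90b1 lies above both.

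Inflammatory genes fell nearly throughout. Of 18 tested NF-kB subunits, feedback genes and chemokines none rose and 17 fell (median -1.83), 6 of them with fewer than 4 of the CR_cisplatin and BL_vehicle libraries at 1 TPM, and 7 of 25 members, among them Tnf, Il1b and Il6, were too low to test. Cxcl1, which attracts neutrophils, measured 30.1, 27.4, 30.5 and 31.7 TPM in BL_cisplatin and 0.855, 0.376, 1.09 and 0.260 TPM in CR_cisplatin (-4.26, SE 0.72). The subunit Nfkb2 (-2.42), the inhibitor Nfkbia (-1.70) and Il34, a growth factor of macrophages made by the tubule (-2.65), fell too, and Cx3cl1 was not called. Of 26 interferon-stimulated genes 23 fell and none rose (median -0.80), led by Oasl1 (-3.26) and Isg15 (-2.09), while 3 were not called, Rsad2 and Ifi44 among them. Among 15 complement genes 3 rose and 2 fell (median 0.36): C3, the central component, measured 92.6, 66.8, 70.3 and 151 TPM without and 3.71, 4.57, 3.20 and 11 TPM with calorie restriction (-3.92, SE 0.62), and Cfb, factor B, rose (1.29), with 79.5% of its exon bases shared with a readthrough gene. Without BL_cisplatin 4 the complement genes called higher were 7.

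Markers of immune cells did not move as a block. The summed TPM of 18 macrophage markers was 132 to 159 in BL_cisplatin, 63.9 to 90.1 in CR_cisplatin and 72.1 to 88.1 in BL_vehicle. Of 12 tested 3 rose and 4 fell, beside 29.8% higher and 37.4% lower of all genes tested. Those that fell were Cd68 (-4.44), Cd14 (-3.13), Chil3 (-1.88) and Itgam (-0.89), which shares 68.7% of its exon bases with another gene. Cd68, a lysosomal protein, measured 56.7, 60.8, 68.1 and 41.3 TPM in BL_cisplatin and 2.17, 1.52, 1.29 and 1.55 TPM in CR_cisplatin. Most of the difference in the summed macrophage markers lay in Cd68. The receptors Csf1r (1.44), which shares 15.1% of its exon bases with Hmgxb3 on the other strand, and Mertk (0.64) rose, and the C1q chains overlapped, as in C1qa with 6.18 to 15.3 and 8.97 to 13.9 TPM. Without BL_cisplatin 4 the macrophage markers called higher were 6. Of 13 neutrophil markers 2 were high enough to test, and S100a9 fell (-0.93), as did S100a8 (-0.59; -0.42 without CR_cisplatin 3 and -0.49 without BL_cisplatin 2, neither past the threshold), with summed neutrophil markers of 6.63 to 9.11 TPM in BL_cisplatin and 0.698 to 3.97 TPM in CR_cisplatin. Of 18 lymphocyte markers 2 were tested, and Ighm rose (1.26). Red blood cell genes were higher in CR_cisplatin too, 6 of 6 tested with a median of 2.10, and the part of blood in the lymphocyte values was not tested. The filter partly sets these counts. The 2 neutrophil genes tested reached 1 TPM in fewer than 4 of the CR_cisplatin and BL_vehicle libraries. So did 3 of the 12 macrophage genes tested, of which 2 were called lower. The 2 lymphocyte genes and 4 of the 6 red blood cell genes did so in fewer than 4 of the BL_cisplatin and HP_cisplatin libraries.

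In some genes the CR_cisplatin libraries lay outside the range of both other groups. All 4 CR_cisplatin libraries lay above all 8 others, and the gene was called higher, in 409 genes (2.72%), and below with a lower call in 142 (0.946%). The calls are against BL_cisplatin: against BL_vehicle limma called none of the 409 (15 without HP_cisplatin) and 1 of the 142 (6 without HP_cisplatin), so for most a difference from BL_vehicle is not shown. The count above was 312 with the abundant genes left out, 317 with quantile normalization and 543 without CR_cisplatin 4, of which 298, 234 and 398 were among the 409. The count below was 203, 218 and 195 in that order, of which 140, 114 and 131 were among the 142. By the width of the gap the rule named Slc10a2, Tmigd1, Tbx10, Guca2b, Enpep, Bend5, Dnajb11 and Arsb above, and all 8 stayed above in each of these. Slc10a2, the bile acid carrier of ileum and kidney, measured 6.77, 3.99, 4.19 and 7.96 TPM in BL_cisplatin, 35.5, 42.6, 31.9 and 46.8 TPM in CR_cisplatin and 22.3, 19.4, 17.1 and 14.8 TPM in BL_vehicle. Each CR_cisplatin library was above the highest of the others by a wide gap. Guca2b, uroguanylin, a peptide that promotes salt excretion, measured 259, 253, 291 and 257 TPM in CR_cisplatin against 76.5 to 207 in BL_cisplatin and 184 to 209 in BL_vehicle. Tmigd1, an adhesion molecule of the brush border, measured 169.6 to 199 TPM in CR_cisplatin, 52.5 to 66.2 in BL_cisplatin and 119 to 131 in BL_vehicle, and Arsb, a lysosomal sulfatase, 57.5 to 64.6, 11.9 to 16.9 and 44.3 to 48.4 TPM. Of the 16 genes the rule named here, limma called none against BL_vehicle with all 16 libraries, and Slc10a2, Tmigd1, Tbx10, Bend5, Nr1d1, Ddit3 and Anxa7 without HP_cisplatin. The difference of Slc10a2 from BL_vehicle (1.05) passed without HP_cisplatin (limma adjusted p = 0.0481) but not with all 16 libraries (limma adjusted p = 0.948). Below both groups the rule named Nr1d1, Ccnd1, Id1, Ddit3, Decr2, Rab43, Anxa7 and Snhg11, of which Ccnd1 and Snhg11 no longer met the rule without CR_cisplatin 4. Of these, Rab43 shares 75.4% and Ccnd1 23.4% of its exon bases with another gene. Id1, an inhibitor of basic helix-loop-helix factors, measured 42.8, 33.5, 36.6 and 44.2 TPM in BL_cisplatin, 10.2, 12.4, 9.12 and 11.9 TPM in CR_cisplatin and 26.5, 15.4, 14.3 and 17.5 TPM in BL_vehicle. Decr2, a peroxisomal reductase, measured 19.3 to 20.0 TPM in CR_cisplatin against 29.6 to 38.5 and 22.6 to 26.4 TPM.

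Regulators that respond to hormones and oxygen were mixed. Of 15 tested glucocorticoid-responsive genes 2 rose and 9 fell (median -1.37), though some of these genes also stand in lists described above, such as Cdkn1a, Lcn2, Mt1 and Mt2. Fkbp5 (-1.15) and Zbtb16 (-1.37), which glucocorticoids raise in many tissues, fell, while Klf15 measured 10.4, 9.88, 10.6 and 10.3 TPM in BL_cisplatin and 45.6, 44.3, 56.5 and 38.0 TPM in CR_cisplatin (2.05) and Tsc22d3 rose (0.66). Of 16 tested genes of the hypoxia-inducible factor pathway 8 rose and 6 fell (median 0.26): Vegfa rose (1.13), Ndrg1 rose above both groups (346 to 416 TPM against 112 to 148 and 230.4 to 302 TPM), and Adm (-2.32) and Hif1a (-0.72) fell. Collagens, laminins and matrix proteases fell in 16 of 27 members and rose in 4 (median -0.42). Here the chains of the basement membrane diverged: Col4a1 measured 153, 156, 151 and 155 TPM without and 59.5, 53.3, 58.9 and 67.0 TPM with calorie restriction (-1.35), whereas Col4a3 (1.39) and Col4a4 (1.31), chains of the glomerular membrane, rose. The protease gene Mmp7 measured 1.5 to 1.90 TPM without and 0 to 0.0250 TPM with calorie restriction, and Plat, tissue plasminogen activator, fell (-2.79).

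Machinery for making and breaking down protein differed by compartment. Cytosolic ribosomal proteins fell in 25 of 26 members with a narrow spread (median -0.69), and mitochondrial ribosomal proteins rose in 22 of 28 (median 0.39) with none lower. Rplp0 measured 529.6, 524, 543 and 531 TPM in BL_cisplatin and 267, 269.5, 289 and 265 TPM in CR_cisplatin, above the BL_vehicle range of 238 to 256 TPM (-0.96, SE 0.18). Proteasome subunits were called lower in 14 of 30 and higher in 2 (median -0.14), a count that became 24 with the abundant genes left out and 23 with quantile normalization or voom, so the count for this list rests on the scaling. Psmd11 had the largest fall (-0.98). Among RNA classes, 85 of 221 tested small nucleolar RNA genes were lower and 5 higher (median -0.45), against 4593 lower and 3932 higher of 12079 protein-coding genes (median -0.05). The lower share of both classes was near the 37.4% of all genes tested, and what differed was the share called higher.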

How the data were processed

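Kidney total RNA was measured in 16 libraries, 4 in each of 4 groups, assigned from the preconditioning and injection labels. The authors deposited TPM values for 46078 genes (13880 at 0 in every library), which sum to 1000000 in each library. STAR 2.5, Subread 1.5 with featureCounts and GRCm38/mm10 are named, per the submitters' processing notes. Of the gene IDs, 45229 were found in GENCODE M21, and promoters were taken from RefSeq on GRCm38.p6.

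Since the values are TPM and not counts, limma 3.58.1 (R 4.3.3, statmod 1.5.0) was fitted to log2(TPM + 1) with a trended, robust prior variance, on all 16 libraries and with no term beside the group. Tests were 2-sided with Benjamini-Hochberg adjustment over the 15014 genes with 1 TPM or more in at least 4 libraries, at a threshold of 0.05. Read counts were recovered from TPM as whole multiples (tolerance 0.0001 reads): 24571 of 32198 genes with reads (76.3%) came out whole with the annotated exon length and 7627 with a length found by search. Voom on these counts, an alternative, called 10540 genes. The 8 libraries hold 49180903 to 60668875 recovered reads. The fits were tested on simulated data.

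The members and the 48 gene lists (991 entries) were chosen with earlier results of these data known. Genes were named by a rule. It took the 12 largest rises and 12 largest falls among called protein-coding genes whose libraries do not overlap, with a mean log2(TPM + 1) of at least 1. It took up to 6 members of each list with the smallest adjusted p and up to 3 called against the list's majority. It took Havcr1, Lcn2, Cdkn1a, Slc34a1, Umod and Cth, and the 8 genes farthest above and the 8 farthest below both other groups. Members of the transporter, p53, ketone body, transsulfuration, clock and cell type lists could be named too. Of 289 named genes, 72 fall outside this rule and were chosen after their values were seen. Alternatives changed the pseudocount (0.1), the filter (none, or 5 TPM), the libraries, the scaling and the prior variance. Some genes are not reported here.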

Additional observations from a re-analysis of the deposited data

Results flagged for a closer look

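In 53 of 578 groups of 4 libraries compared for the named genes, 1 library lay so far from the other 3 that its gap to the nearest, as a share of the range of the group, passed the critical value of Dixon's test for 4 values. For independent groups of normally distributed values, chance flags about 1 in 20. The groups here come from the same libraries, so the 53 cannot be read against that rate. Values are TPM, each followed in brackets by the nearest library of the same group.

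The most such values fell to BL_cisplatin 4, a library with adipose transcripts, led by Ucp1 at 107 (0.143), Hp at 91.6 (3.90), Scd1 at 69.1 (6.74), Vcam1 at 6.34 (1.70) and Cyp2e1 at 47.4 (19.2). Also far above the rest of BL_cisplatin in this library were Ttc36 at 28.9 (11.9), Chil3 at 6.93 (2.45), Cd74 at 22.0 (12.3), H2-Aa at 4.78 (2.42) and Mep1b at 2.12 (0.869). Metabolic, clock and other genes of the same library followed, with H2-Eb1 at 6.82 (4.02), Aqp1 at 66.5 (42.6), Qprt at 5.35 (3.20), G6pc at 21.2 (14.5) and Arntl at 6.13 (4.07). The remaining genes in which BL_cisplatin 4 lay apart were Srebf1 at 11.6 (9.33), Phlda3 at 87.8 (72.1), Csad at 17.0 (14.4), Mdh2 at 51.0 (43.8) and Bend5 at 7.11 (6.26). Class II genes (H2-Aa, H2-Eb1 and Cd74) were among those high in BL_cisplatin 4, and each stayed below every CR_cisplatin library.

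CR_cisplatin 4, also with adipose transcripts, stood high in Ucp1 at 37.4 (0.146), Scd1 at 292 (30.5), Cidec at 18.1 (1.22), Hp at 11.4 (0.771) and Sprr1a at 6.30 (1.16). It stood high too in Hk2 at 1.51 (0.260), Cyp4a14 at 21.8 (10.8), Hspa1b at 40.5 (21.3), Hspa1a at 12.3 (6.71) and Pfkfb3 at 3.86 (2.12). Smaller gaps of CR_cisplatin 4 above its group were seen in Abcc3 at 0.609 (0.366) and Mdh2 at 58.4 (55.5). Below its group it lay in Slc31a1 at 21.9 (23.2) and Tef at 28.1 (39.1). Leaving out BL_cisplatin 4 and CR_cisplatin 4 gave 9431 called genes, of which 8997 were among the 10100.

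CR_cisplatin 3, the library with little haemoglobin RNA, was above its group in Egr1 at 8.19 (1.72), Btg2 at 8.77 (5.62), Jun at 15.1 (11.7), Slc5a2 at 219 (174) and Cubn at 114 (95.6). It was further above the other CR_cisplatin libraries in Tmigd1 at 199 (170.2) and Guca2b at 291 (259). Below its group it lay in Isg15 at 0.914 (1.45) and Gclm at 37.9 (40.0).

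CR_cisplatin 2 was above the rest of its group in Inmt at 377 (236), Slc22a30 at 113 (91.0), Hmgcs1 at 182 (155), mt-Atp6 at 1.08 (0.825) and Slc22a2 at 177 (158). A further gene above in CR_cisplatin 2 was Casr at 22.4 (20.6).

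CR_cisplatin 1, which shares its title prefix with BL_cisplatin, was the high library in Krt20 at 1.29 (0.0887), Anxa2 at 11.9 (9.76) and Sprr2f at 0.0877 (0).

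BL_cisplatin 2 lay below its group in mt-Co1 at 8022 (8577).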

How the results depend on the processing

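Of 20 alternative settings, all but the title prefix as a term gave between 6728 and 13233 called genes for CR_cisplatin against BL_cisplatin. With TPM of 5 or more in 4 libraries, 6728 of 8963 genes were called and 3513 of them were lower, and with the title prefix as a term 6327 genes were called, 2791 higher and 3536 lower. No filter gave 13233 of 32198. Leaving out 1 library in turn gave 9390 to 9995 called genes, 4011 to 4819 higher and 5176 to 5603 lower. Without BL_cisplatin 4 and CR_cisplatin 4, which hold adipose transcripts, 9431 were called, and without BL_vehicle 3 as well 9278, both settings chosen after seeing the data. CR_cisplatin against BL_vehicle gave 8 genes by limma with Benjamini-Hochberg adjustment (610 at an unadjusted p under 0.05). It gave 15 with no filter, 65 without HP_cisplatin, 3 without BL_cisplatin 4 and CR_cisplatin 4, 4 without BL_vehicle 3 as well, and 4 to 11 with 1 library of either cisplatin group left out. These settings for the vehicle comparison were added after seeing the data. Without HP_cisplatin the estimate of the spread holds fewer samples. Under quantile normalization mt-Co1 reversed, to a log2 difference of -0.22 (limma adjusted p = 0.026), and the cause was not tested. Of the 289 named genes, voom on recovered counts lost the call of 6 and added 10. The title prefix as a term, which rests on CR_cisplatin 1, lost the calls of the genes listed for it above. No paired analysis was possible because the labels number no replicates. Depth limits genes near 1 TPM, where 1 library can decide a call.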
